A study of Mus musculus with 6 samples.

Results

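The 32 genes described here encode the enzymes of glycolysis and gluconeogenesis, with the regulators of fructose 2,6-bisphosphate, the lactate dehydrogenases and the kinase that brings fructose into the pathway. They were chosen by gene name in the table of read counts, which holds 54532 named genes. The names matched 33 rows, because 2 rows are called Aldoa. Of the 32 genes, 31 passed the filter on low counts and were tested. Hk3, which encodes a hexokinase of blood cells, held 2 to 7 counts per library and was not tested, and the same holds for the second Aldoa row, with 3 to 9 counts.

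The samples are whole mouse kidneys of 2 genotypes, wild type (WT) and Lpar3-/-. The latter are labelled as lacking receptor 3 for lysophosphatidic acid, a signalling lipid that acts through G-protein-coupled receptors. All the mice had spent 12 h under systemic hypoxia, at 8% O2 and normal pressure, so no value here measures a response to hypoxia itself. There were 3 libraries per genotype, of 16011804 to 17991881 counts each. The sources used here do not give strain, age, sex or the construction of the allele, nor whether each library is a separate animal. The p-values therefore measure the spread between these libraries, and some of it may be technical.

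Lpar3 reads numbered 645, 634 and 577 in WT, against 672, 592 and 580 in the group with the mutant label. A log2 fold change of 0.0033 resulted (SE 0.081, adjusted p = 0.997 by the edgeR quasi-likelihood test with Benjamini-Hochberg adjustment). The gene's own reads therefore did not separate the groups. A count over the whole gene cannot show which exons the allele removes, and the mutant group is called by its label throughout.

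Glycolysis splits glucose into pyruvate, and lactate dehydrogenase converts pyruvate to lactate and back. Gluconeogenesis runs the path in reverse around 3 steps that glycolysis makes irreversible, with enzymes of its own. In the kidney the proximal tubule makes glucose, from lactate and glutamine among others, and uses little of it, whereas the distal segments and the medulla depend more on glycolysis. Many glycolytic genes are known targets of the hypoxia-inducible factors, which bind the core letters ACGTG and GCGTG in their promoters.

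In the 250 bases before the start sites that RefSeq gives (build GRCm38.p6), ACGTG stood on either strand in 17 of the 51 promoters of the 32 genes (33.3%), against 16.6% of all 32851 promoters in the table. GCGTG stood in 21 of the 51 (41.2%), against 28.2% of all. Some windows of the same gene overlap, so a site can count more than once. Per gene, ACGTG stood in any promoter of 13 of the 32 (40.6%), against 18.5% of all genes with a promoter listed. The 32 genes had 51 promoters and all 27025 genes 32851, so the members had more windows per gene in which a match could fall. The sets were not matched for this or for base composition. The palindrome CACGTG is read as ACGTG on both strands and was counted as 2 matches. Ldha held 5 matches to ACGTG in this window, counted over both strands, with 2 such palindromes, and 0.502% of all promoters held at least 4. Ldha and Pfkfb3 each have 2 promoters in the table, of which the one with more matches is shown. The other Ldha window (chr7:46846832-46847081) held ACGTG 0 times and GCGTG 1 time, and the other Pfkfb3 window (chr2:11553930-11554179) held ACGTG 1 time. The sequences of 4 genes are shown, 5′ to 3′ on the strand of the gene. Ldha and Pfkfb3 were among the members with the lowest p between genotypes, Pgk1 is a textbook target of the hypoxia-inducible factors, and Pck1 is the most abundant member and held neither motif. Capitals mark both motifs and their reverse complements. A match is a string of letters and not a measured binding site.
Ldha, chr7:46845554-46845803, plus strand: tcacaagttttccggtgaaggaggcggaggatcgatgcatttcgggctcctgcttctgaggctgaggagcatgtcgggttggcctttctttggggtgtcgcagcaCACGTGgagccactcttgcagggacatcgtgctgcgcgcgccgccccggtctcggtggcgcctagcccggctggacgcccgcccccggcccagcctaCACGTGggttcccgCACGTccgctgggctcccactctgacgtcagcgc
Pfkfb3, chr2:11502091-11502340, minus strand: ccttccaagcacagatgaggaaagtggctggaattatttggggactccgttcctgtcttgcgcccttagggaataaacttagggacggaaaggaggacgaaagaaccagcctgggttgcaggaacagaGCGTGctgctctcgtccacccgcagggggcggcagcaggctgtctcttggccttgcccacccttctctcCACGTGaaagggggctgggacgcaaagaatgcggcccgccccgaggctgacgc
Pgk1, chrX:106186850-106187099, plus strand: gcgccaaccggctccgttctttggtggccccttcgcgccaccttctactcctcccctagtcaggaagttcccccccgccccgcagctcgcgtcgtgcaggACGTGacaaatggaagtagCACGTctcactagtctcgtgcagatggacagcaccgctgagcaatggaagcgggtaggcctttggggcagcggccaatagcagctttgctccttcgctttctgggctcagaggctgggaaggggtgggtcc
Pck1, chr2:173152823-173153072, plus strand: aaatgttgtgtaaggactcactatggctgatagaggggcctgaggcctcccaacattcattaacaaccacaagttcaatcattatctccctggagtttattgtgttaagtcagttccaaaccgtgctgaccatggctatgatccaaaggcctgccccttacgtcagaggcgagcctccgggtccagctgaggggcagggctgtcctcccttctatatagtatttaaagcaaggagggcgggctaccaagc

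Genes with and without the motifs occurred on both sides of the pathway. Neither motif stood in any window of the gluconeogenic genes Pck1, G6pc and Fbp1 or of the glycolytic genes Gpi1, Tpi1, Pgam2, Eno2 and Pklr. Pcx, which encodes pyruvate carboxylase, held 3 matches to ACGTG in its upstream promoter, and Khk, Hk2 and Fbp2, among others, held 2 each. Both Aldoc promoters held GCGTG once and ACGTG not at all. The absence of a match says only that these letters are not in this window.

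The levels of the members were compared per length. The authors' FPKM values (fragments per kilobase of gene, scaled for depth) put Pck1 highest, at 1654 ± 1.78 in WT and 1454 ± 133 in the libraries labelled Lpar3-/- (mean ± SD, n = 3 each). Pck1 encodes the cytosolic phosphoenolpyruvate carboxykinase, which commits carbon to gluconeogenesis. Over all 6 libraries, the mean FPKM was 738 for Ldhb and 731 for Fbp1, the fructose bisphosphatase of liver and kidney. Aldoa at 318, Tpi1 at 304, Khk at 300, Ldha at 267, Pcx at 247 and Pgk1 at 242 came next, and neighbours in this order overlapped over the 6 libraries. The gluconeogenic G6pc was at 151 and Pck2 at 3.57. Pfkl and Hk1, which encode a phosphofructokinase and a hexokinase and so act at the entry into glycolysis, were at 18.3 and 16.7. Hk2, at a mean of 0.220 FPKM, rested on 13 to 36 counts per library.

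None of the 31 tested members was called different between the genotypes (edgeR quasi-likelihood test, adjusted p below 0.05), where 0.374% of the 15225 genes tested were called. An unadjusted p below 0.05 was found for 8 members (25.8%), against 9.18% of all genes. Of these members, 6 were lower in the libraries labelled Lpar3-/- and 2 higher, against 5.21% and 3.97% of all genes. The groups did not overlap in 8 members (25.8%), against 13.7% of all genes, with 6 lower (7.12% of all genes) and 2 higher (6.58% of all genes). DESeq2 called 1 member, Ldha, where it called 1.08% of all genes, and limma-voom called 0, where it called 0.361%. Without the filter on low counts, edgeR called 4 members (Ldha, Gapdh, Pfkfb3 and Aldoc) and 1.95% of all genes. The fold change was negative for 21 of the 31 (67.7%) and for 51.1% of all genes tested. The median log2 fold change of the tested members was -0.096, and that of all genes tested was -0.0036. Without WT replicate 2, edgeR called 2 members, Pfkl and Gapdh (0.462% of all genes), and without WT replicate 1 it called 1, Pgam2 (0.955%). With the replicate number as a block it called 0 members and 0.525% of all genes.

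**Figure D1:**
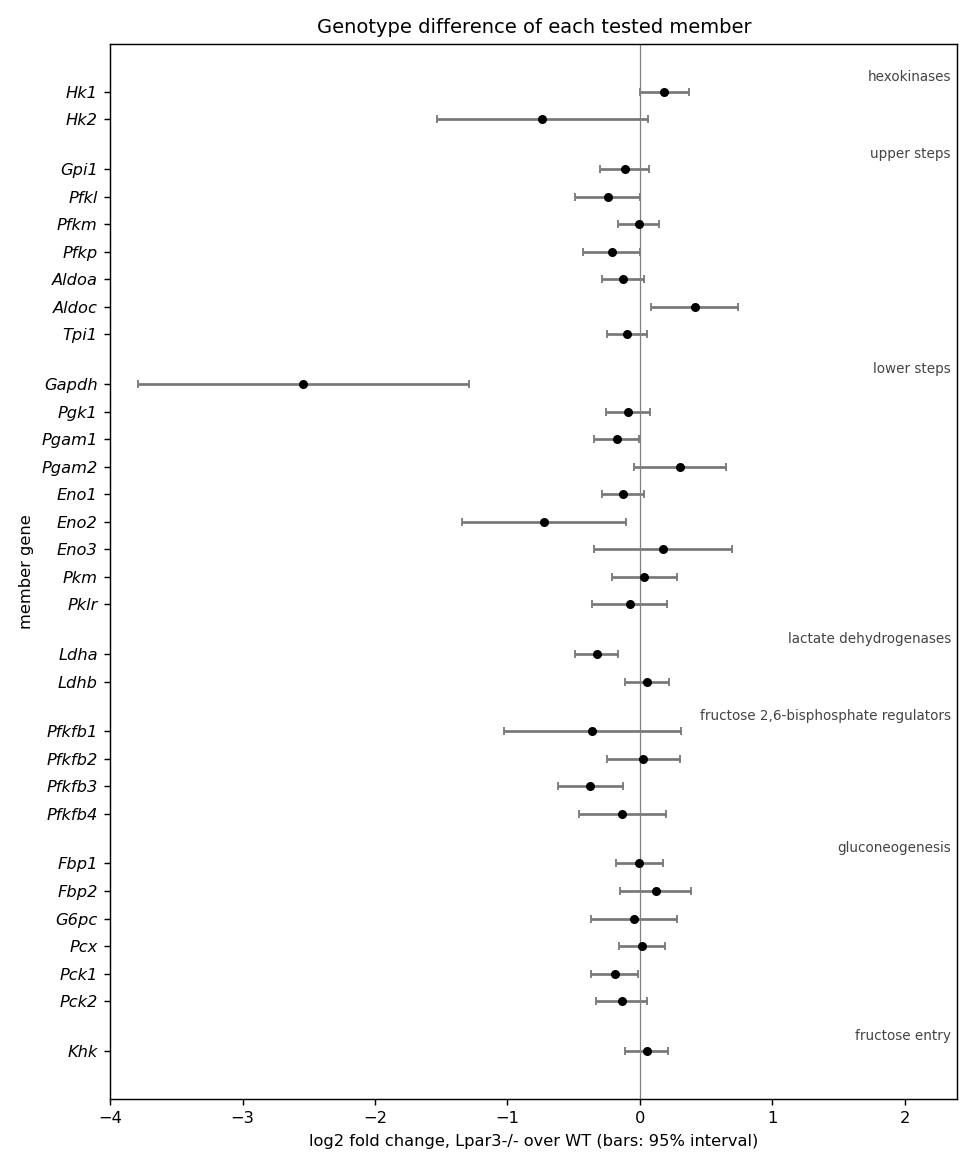
Log2 fold change of each of the 31 tested members, libraries labelled Lpar3-/- over WT (n = 3 each), on the horizontal axis, by role on the vertical axis. Points are edgeR estimates and bars their 95% intervals; 21 points lie below 0, and Gapdh lies farthest out at -2.54.

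WT replicate 2 stood apart from the other WT libraries in several members. It was the lowest of the 6 libraries in 9 members (Hk1, Pfkl, Aldoc, Gapdh, Pgam2, Eno3, Pkm, G6pc and Khk). Lpar3-/- replicates 2 and 3 were each the lowest in 7, and this was counted for the members only. WT replicate 1 was the highest of the 6 in 14. WT replicate 2 also had the highest summed level of 10 macrophage and dendritic cell markers, at 520 CPM (counts scaled to a common library total, with TMM factors), where the other 5 libraries ran from 223 to 274. Among other marker lists, its sums were the lowest for thick ascending limb (4917 CPM), distal convoluted tubule (543 CPM) and intercalated cells (225 CPM). They were the highest for segment 3 of the proximal tubule (2513 CPM) and for fibroblasts and pericytes (333 CPM). Its sums were also the highest for podocytes (422 CPM), neutrophils (5.92 CPM) and erythroid cells (626 CPM). WT replicate 3 lay close to it for segment 3 (2469 CPM) and for distal convoluted tubule (567 CPM). The part of these cell types in the members' values was not tested.

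**Figure D2:**
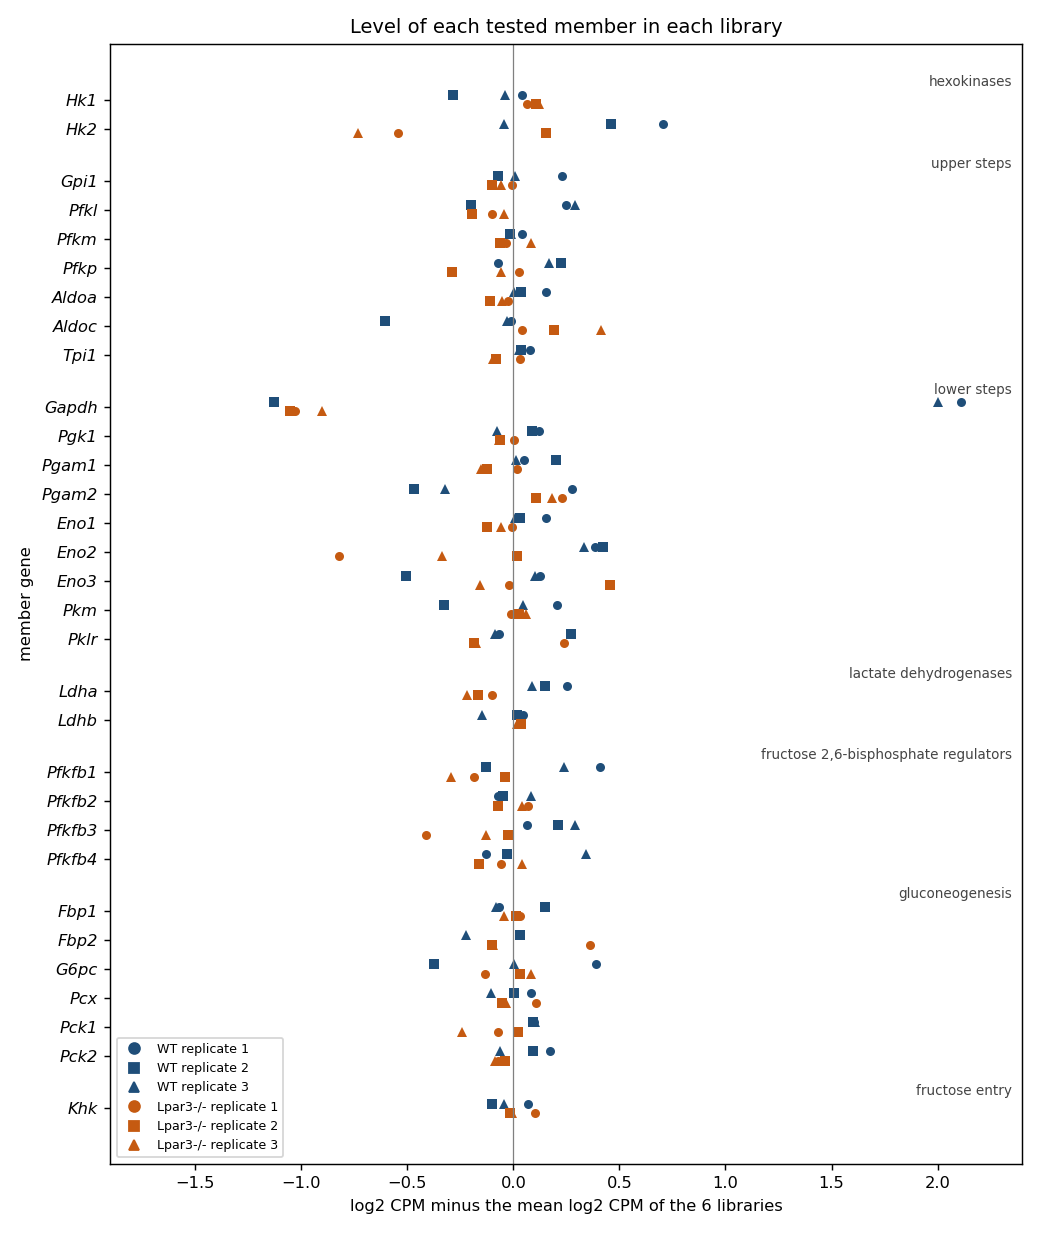
Log2 CPM of each tested member in each library, as the difference from the mean of the 6 libraries (horizontal axis), by role (vertical axis). Blue marks are WT and orange marks the libraries labelled Lpar3-/-; in Gapdh, WT replicates 1 and 3 stand far to the right of the other 4 libraries, and in Ldha all 3 blue marks lie to the right of the orange ones.

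The lactate dehydrogenases differed in their pattern. Ldha (chromosome 7, 46841475-46855627, plus strand) encodes the subunit usual in glycolytic cells. Its level was 1052, 979 and 941 CPM in the WT libraries and 824, 789 and 759 CPM in those labelled Lpar3-/-. Every mutant-labelled library lay below every WT library. The estimate on the log2 scale was -0.33 (SE 0.074, 95% interval -0.49 to -0.16), a level 20.2% lower, with an unadjusted p of 0.000903 and an edgeR adjusted p of 0.1004. The DESeq2 adjusted p was 0.00136, and over all alternatives the adjusted p ran from 0.00136 to 0.566, with every estimate between -0.36 and -0.28.

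Ldhb, whose subunit is usual in oxidative tissue, was at 1205, 1178 and 1051 CPM in WT and at 1197, 1194 and 1179 CPM in the libraries labelled Lpar3-/-. These ranges overlapped. Its log2 fold change was 0.056 (SE 0.075, 95% interval -0.11 to 0.22, edgeR adjusted p = 0.892). As a share of the summed FPKM of both genes, Ldha took 29.3%, 28.3% and 29.8% in the WT libraries and 24.6%, 23.9% and 23.4% in those labelled Lpar3-/-. The mean share was 29.1% ± 0.78 against 24.0% ± 0.60 (SD, n = 3 each), and the groups did not overlap. From CPM, with no division by length, the shares of Ldha were 46.4% ± 0.94 and 39.9% ± 0.80. Shares of this kind were not tested.

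The regulators of fructose 2,6-bisphosphate set the pace of phosphofructokinase, since this metabolite activates it and inhibits fructose bisphosphatase. Pfkfb3 encodes the form with the strongest kinase activity. Its level was 26.0, 28.8 and 30.4 CPM in WT and 18.7, 24.4 and 22.7 CPM in the libraries labelled Lpar3-/-, with no overlap. This gave a log2 fold change of -0.37 (SE 0.11, 95% interval -0.62 to -0.13, edgeR adjusted p = 0.270). Pfkfb3 gave 47.5% ± 1.83 of the summed FPKM of the 4 Pfkfb genes in WT and 42.6% ± 4.04 in the mutant-labelled group, and Pfkfb2 gave 18.2% and 21.6%. The other 3 genes overlapped between the groups, with log2 fold changes of -0.36 for Pfkfb1, 0.027 for Pfkfb2 and -0.13 for Pfkfb4. Pfkfb1, the form of liver and muscle, rested on 21 to 35 counts per library.

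Among the hexokinases, which trap glucose in the cell as glucose 6-phosphate, Hk1 and Hk2 lay on opposite sides of 0. Hk1 was at 147, 117 and 139 CPM in WT and at 149, 154 and 155 CPM in the libraries labelled Lpar3-/-. The groups did not overlap, with the gap between the nearest libraries small. Its log2 fold change came to 0.19 (SE 0.084, 95% interval 0.0025 to 0.37, edgeR adjusted p = 0.535), and it was 0.097 without WT replicate 2. Hk2, the insulin-responsive and hypoxia-inducible hexokinase, was at 2.03, 1.72 and 1.21 CPM in WT and at 0.854, 1.39 and 0.751 CPM in the others, which overlapped. Its log2 fold change was -0.74 (SE 0.37), with a 95% interval of -1.53 to 0.062 (edgeR adjusted p = 0.587). Hk1 made up 94.2% of the hexokinase FPKM in WT and 95.9% in the mutant-labelled group, and Hkdc1, a further hexokinase outside the 32, 3.57% and 2.88%.

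The upper steps carry hexose phosphates to triose phosphates, and 6 of these 7 genes had a negative fold change. Phosphofructokinase is the committing step of glycolysis. Pfkl, its liver-type subunit, was at 145, 106 and 149 CPM in WT and at 114, 106 and 118 CPM in the libraries labelled Lpar3-/-. WT replicate 2 lay as low as the lowest mutant-labelled library, so the groups overlapped. The log2 fold change was -0.24 (SE 0.11, edgeR adjusted p = 0.551). Without WT replicate 2 it was -0.38 with an adjusted p of 0.0451, where over all alternatives the adjusted p of Pfkl ran from 0.0451 to 0.877. Pfkp, the platelet-type subunit, had a log2 fold change of -0.21 (edgeR adjusted p = 0.554), and Pfkm, the muscle-type subunit, one of -0.0073.

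Aldolase splits fructose 1,6-bisphosphate. Aldoc, the form typical of brain, was at 23.5, 15.6 and 23.2 CPM in WT and at 24.4, 27.1 and 31.6 CPM in the libraries labelled Lpar3-/-. No mutant-labelled library lay below a WT library, and WT replicate 2 was lowest. The estimate on the log2 scale was 0.42 (SE 0.15, 95% interval 0.086 to 0.75, edgeR adjusted p = 0.387), and 0.25 without WT replicate 2. Aldoa, the ubiquitous form, was at 1036, 958 and 935 CPM against 916, 863 and 898 CPM, with no overlap. Its log2 fold change was -0.13 (edgeR adjusted p = 0.654). Gpi1, the isomerase of the step before phosphofructokinase, and Tpi1, triosephosphate isomerase, had log2 fold changes of -0.11 and -0.096, and their groups overlapped.

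**Figure D3:**
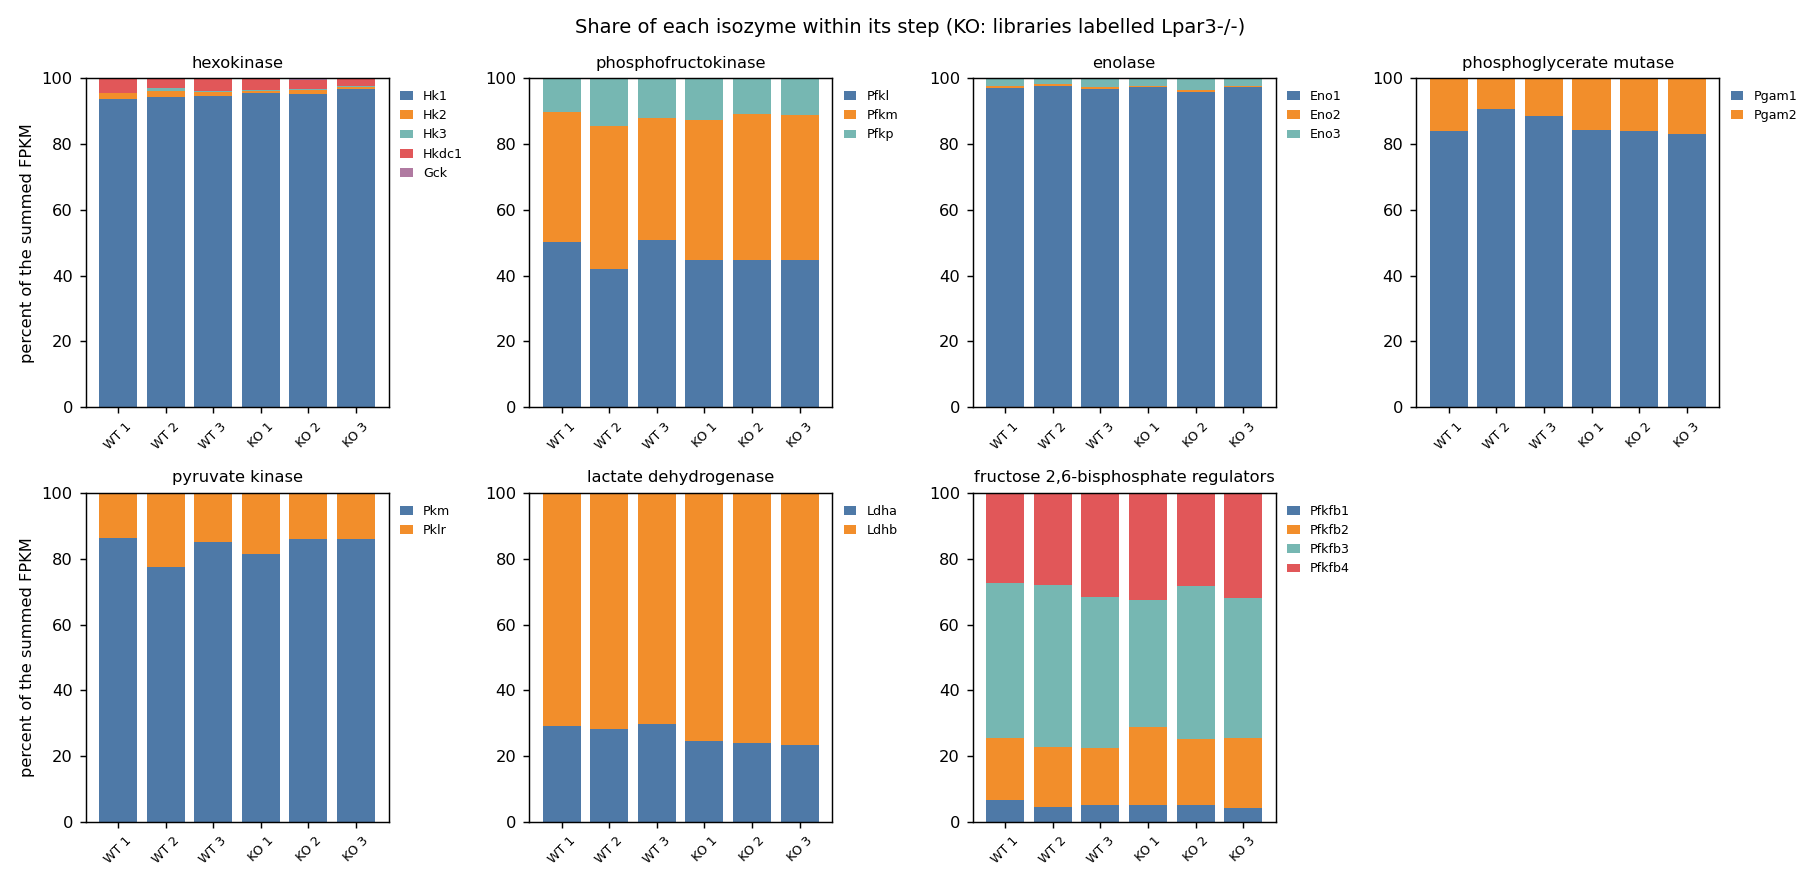
Share of each isozyme in the summed FPKM of its step (vertical axis, percent) in each of the 6 libraries (horizontal axis), for 7 steps; KO stands for the libraries labelled Lpar3-/-. Ldha takes 28.3% to 29.8% in WT and 23.4% to 24.6% in the other group, and Hk1 and Eno1 take most of their steps in every library.

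Gapdh, which encodes the dehydrogenase often used as a reference gene, had the widest difference of the members and also the least even one. Its counts were 1300, 131 and 1123 in the WT libraries and 146, 130 and 157 in those labelled Lpar3-/-, or 73.4, 7.75 and 67.9 CPM against 8.32, 8.19 and 9.07 CPM. WT replicate 2 lay with the mutant-labelled libraries, and the groups overlapped. This gave a log2 fold change of -2.54 (SE 0.57, 95% interval -3.79 to -1.29, edgeR adjusted p = 0.0995). Without WT replicate 2 it was -3.05, and over all alternatives the adjusted p ran from 6.07e-106 to 0.618, the lowest without the filter on low counts.

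At 6.97 FPKM over the 6 libraries, the Gapdh row lay far below its neighbours in the pathway, Tpi1 at 304 and Pgk1 at 242. The annotation (GENCODE M21, build GRCm38) holds 176 copies of Gapdh elsewhere in the genome that match at least 300 bases of its coding sequence at 90% identity or more. Of these, the processed pseudogene Gm13394 (chromosome 2, 28933610-28934609) is 99.9% identical over 999 bases. It held 9335, 9050 and 7577 counts in WT and 8443, 7886 and 8253 in the libraries labelled Lpar3-/-, with a log2 fold change of -0.064 (SE 0.078). When the counts of Gapdh and the 78 copies with at least 95% identity were summed, an alternative chosen after seeing the data, the level was 623, 567 and 547 CPM in WT and 516, 527 and 508 CPM in the mutant-labelled group. The sums did not overlap. Their log2 fold change was -0.16 (SE 0.073, 95% interval -0.32 to -0.0032, edgeR adjusted p = 0.532). Each sum still held the uneven Gapdh row, at 1123 of 9038 counts in WT replicate 3 and 146 of 9061 in Lpar3-/- replicate 1. Gm13394 alone overlapped between the groups. The gap between the sums is therefore not separate from the Gapdh row. The sources used here do not say how reads matching several genes were assigned, so the row named Gapdh is uncertain as a measure of the gene.

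**Figure D4:**
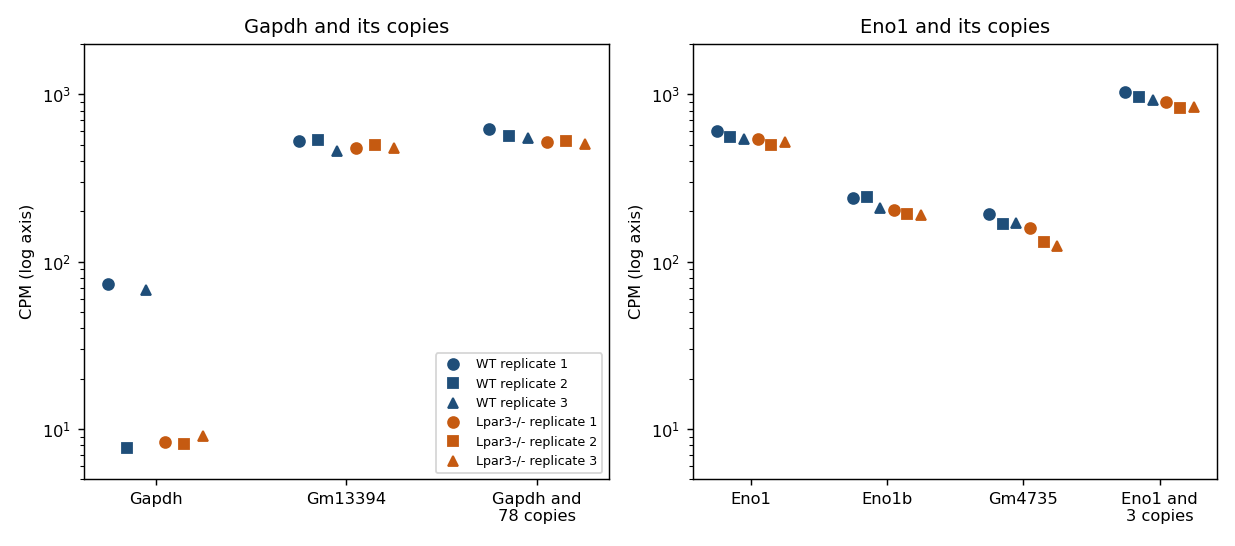
CPM (vertical log axis) in each library of Gapdh, its pseudogene Gm13394, and Gapdh summed with its 78 copies of at least 95% identity (left). The right panel gives Eno1, its copies Eno1b and Gm4735, and Eno1 summed with its 3 copies of at least 95% identity. Gapdh alone runs from 7.75 to 73.4 CPM, whereas Gapdh with its copies runs from 508 to 623 CPM.

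Enolase, the step that makes phosphoenolpyruvate, showed the same direction in its main gene and its copies. Eno1, the ubiquitous form, was at 603, 553 and 545 CPM in WT and at 539, 497 and 520 CPM in the libraries labelled Lpar3-/-, with no overlap. The log2 fold change was -0.13 (SE 0.073, edgeR adjusted p = 0.664). Its near-identical copies Eno1b and Gm4735, the latter a processed pseudogene, had log2 fold changes of -0.23 and -0.35 (edgeR adjusted p = 0.335 and 0.220), each without overlap. They are 99.4% and 99.6% identical to Eno1 over 1302 bases. Since the assignment of reads matching several genes is not given, these rows cannot be taken as measures separate from Eno1. Summed with its 3 copies of at least 95% identity, Eno1 was at 978 ± 55.9 CPM in WT and 856 ± 43.9 CPM in the mutant-labelled group (SD, n = 3 each), a log2 fold change of -0.19 (edgeR adjusted p = 0.442).

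Eno2, the neuronal enolase, was at 2.77, 2.84 and 2.66 CPM in WT and at 1.196, 2.14 and 1.68 CPM in the libraries labelled Lpar3-/-. The WT libraries lay close together and above the others. Its log2 fold change came to -0.72 (SE 0.28, 95% interval -1.34 to -0.11, edgeR adjusted p = 0.439), on 21 to 49 counts per library. Of 6 neuronal markers, Snap25 was at 0 in every library, and their summed level was 1.81 to 3.10 CPM in WT and 2.11 to 2.58 CPM in the mutant-labelled group. Of the 6, 4 held at most 20 counts in every library. The 2 tested had log2 fold changes of -0.62 and -0.23, with overlap and a lowest edgeR adjusted p of 0.782. Eno3, the muscle enolase, had a log2 fold change of 0.18 with a 95% interval of -0.34 to 0.70.

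Other enzymes lead from 1,3-bisphosphoglycerate to pyruvate. Pgk1, phosphoglycerate kinase, was at 593, 579 and 517 CPM in WT and at 546, 523 and 520 CPM in the libraries labelled Lpar3-/-, with a log2 fold change of -0.088 (SE 0.075, 95% interval -0.25 to 0.076, edgeR adjusted p = 0.805). These ranges overlapped. Pkm, the pyruvate kinase of most tissues, was at 332, 229 and 297 CPM against 286, 293 and 300 CPM. WT replicate 2 was lowest and WT replicate 1 highest, with a log2 fold change of 0.035 (SE 0.11, 95% interval -0.21 to 0.28, edgeR adjusted p = 0.962). Pklr, the liver and red cell form, had a log2 fold change of -0.076, with overlapping groups. In the annotation it shares 711 exon bases with Hcn3 on the opposite strand. Other members share exon bases too, among them Pkm (767 with Gm49759) and Pfkfb2 (1262 with Gm29427), both on the same strand.

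The mutases, which move the phosphate on phosphoglycerate, lay on opposite sides of 0. Pgam1, the ubiquitous form, was at 322, 358 and 314 CPM in WT and at 315, 285 and 280 CPM in the libraries labelled Lpar3-/-. The highest mutant-labelled library lay just above the lowest WT library. The log2 fold change was -0.17 (SE 0.079, edgeR adjusted p = 0.535), and -0.12 without WT replicate 2. Pgam2, the muscle form, was at 28.0, 16.7 and 18.5 CPM in WT and at 27.1, 24.9 and 26.2 CPM in the others. WT replicate 1 alone was above the mutant-labelled libraries. The log2 fold change was 0.30 (SE 0.16, edgeR adjusted p = 0.617). Without WT replicate 1 it was 0.57 with an adjusted p of 0.0336, where over all alternatives the adjusted p ran from 0.0336 to 0.889. Of 12 skeletal muscle markers, Ckm, Myh2, Myh4 and Tnnc2 were at 0 in every library, and the summed level was 1.69 to 2.13 CPM in WT and 2.05 to 2.83 CPM in the mutant-labelled group. Of the 12, 11 held at most 20 counts in every library. The 1 marker tested was higher without overlap, with a log2 fold change of 1.07 (edgeR adjusted p = 0.402) and an unadjusted p below 0.05. The part of muscle in the values of Pgam2 was not tested.

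In gluconeogenesis, Pck1 stood out by its even WT level. It was at 5725, 5700 and 5750 CPM in WT and at 5096, 5427 and 4531 CPM in the libraries labelled Lpar3-/-. All 3 mutant-labelled libraries lay below the WT libraries, and they spread more widely. The estimate on the log2 scale was -0.19 (SE 0.083, 95% interval -0.37 to -0.010, edgeR adjusted p = 0.514), a level 12.4% lower, and it was -0.12 without Lpar3-/- replicate 3. Pck2, the mitochondrial carboxykinase, had a log2 fold change of -0.14 (edgeR adjusted p = 0.712). Pck1 gave 99.8% of the carboxykinase FPKM in both groups.

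The remaining gluconeogenic enzymes had estimates near 0. Fbp1 was at 1193, 1388 and 1184 CPM in WT and at 1281, 1261 and 1214 CPM in the libraries labelled Lpar3-/-, a log2 fold change of -0.0039 (SE 0.081, 95% interval -0.18 to 0.17, edgeR adjusted p = 0.996). G6pc, the phosphatase that releases free glucose, was at 475, 280 and 364 CPM against 331, 371 and 385 CPM. The WT libraries held both the highest and the lowest value, with a log2 fold change of -0.044 (SE 0.15, 95% interval -0.37 to 0.28, edgeR adjusted p = 0.964). Fbp2, the muscle-type bisphosphatase, had a log2 fold change of 0.12 and Pcx, which makes oxaloacetate from pyruvate, one of 0.014, both with overlapping groups. Khk, the ketohexokinase that phosphorylates fructose, was at 570, 506 and 526 CPM against 582, 537 and 541 CPM. These overlapped, with a log2 fold change of 0.051 (SE 0.075, 95% interval -0.11 to 0.21, edgeR adjusted p = 0.902). For these 5 genes the p does not show that the levels were alike, and the intervals of Fbp1, G6pc and Khk give the differences the libraries allow.

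A further 73 genes of neighbouring pathways were taken as 7 lists, and 69 were tested. The fold change was negative in 36 of these and positive in 33, and its median on the log2 scale was -0.019. An unadjusted p below 0.05 by edgeR was found in 4 (5.80%), 1 lower and 3 higher, against 9.18% of all genes. Of the 69, 1 was called, against 0.374% of all genes. That gene was Gpt, whose product is the cytosolic alanine aminotransferase that turns alanine into pyruvate. It was at 47.0, 36.9 and 43.2 CPM in WT and at 113, 92.2 and 86.2 CPM in the libraries labelled Lpar3-/-, far apart. Gpt rose by 1.195 on the log2 scale (SE 0.11, 95% interval 0.95 to 1.44, edgeR adjusted p = 0.000548). Gpt2, the mitochondrial aminotransferase, had overlapping groups and a log2 fold change of -0.24 (SE 0.16, edgeR adjusted p = 0.731).

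The neighbours of lactate and pyruvate were mixed. Pdk2, a kinase that switches off pyruvate dehydrogenase, was at 409, 375 and 368 CPM in WT and at 445, 470 and 450 CPM in the libraries labelled Lpar3-/-. The groups did not overlap, and the log2 fold change was 0.24 (SE 0.071, edgeR adjusted p = 0.260). Its adjusted p was 0.0481 with DESeq2, and ran from 0.0481 to 0.689 over DESeq2, the replicate block and the left-out libraries. Pdk3, another such kinase, had a log2 fold change of -0.24 with overlap. Slc16a7 and Slc16a3, which encode transporters of monocarboxylates such as lactate, had log2 fold changes of 0.28 and -0.48 (edgeR adjusted p = 0.471 and 0.694), both with overlap. Ldhd, the D-lactate dehydrogenase, and Slc37a4, the glucose 6-phosphate transporter, had log2 fold changes of -0.19 and 0.17, also with overlap.

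In the polyol branch, Akr1b3, the aldose reductase that opens the path from glucose to fructose, was at 241, 197 and 256 CPM in WT and at 165, 196 and 192 CPM in the libraries labelled Lpar3-/-. WT replicate 2 lay just above the highest of the others. Its log2 fold change was -0.33 (SE 0.10, edgeR adjusted p = 0.288). Without WT replicate 2 it was -0.43 with an edgeR adjusted p of 0.0482, where over DESeq2, the replicate block and the left-out libraries the adjusted p ran from 0.0482 to 0.655. Tkfc, the triose kinase of fructose breakdown, had a log2 fold change of -0.059. In the pentose phosphate branch, H6pd and Pgd, which yield NADPH, had log2 fold changes of -0.13 and -0.12, each without overlap and with edgeR adjusted p values of 0.617 and 0.620. Of the 14 glycogen genes, none had an unadjusted p below 0.05. Phkb and Phkg2, subunits of phosphorylase kinase, came nearest, at -0.081 and 0.12.

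Markers of other cell types were measured in the same libraries. In whole tissue, fewer cells of a type and less RNA per cell cannot be told apart. Over all genes tested, 9.18% had an unadjusted p below 0.05 by edgeR, 0.374% were called and 51.1% had a negative fold change. All 9 tested adipocyte markers of 10 were lower, 7 at an unadjusted p below 0.05 and none called by edgeR, and their sum was 264 to 436 CPM in WT and 188 to 272 CPM in the libraries labelled Lpar3-/-. All 9 tested macrophage and dendritic cell markers of 10 were also lower, 5 at an unadjusted p below 0.05 and none called, with sums of 259 to 520 CPM and 223 to 262 CPM. No marker of either list was at 0 in every library. Of 7 thick ascending limb markers, 6 were higher, 5 at an unadjusted p below 0.05 by edgeR, with a lowest adjusted p of 0.0613. The sum of the 7 was 4917 to 5573 CPM in WT and 6086 to 6366 CPM in the mutant-labelled group, which did not overlap. None of these 7 was called, and the adipocyte and macrophage sums overlapped between the groups. The part of these cell types in the values of Ldha, Pfkfb3, Hk1, Aldoc and the other members was not tested.

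The proximal tubule, the site of gluconeogenesis, was present in every library. The sum of 8 markers of its segments 1 and 2 was 7454 to 8115 CPM in WT and 7676 to 8333 CPM in the libraries labelled Lpar3-/-, which overlapped. The sum hides differences in both directions. Of these 8 markers, 4 had an unadjusted p below 0.05 by edgeR, 2 lower and 2 higher, and none was called. The sum of 7 markers of segment 3 was 1591 to 2513 CPM against 1654 to 1869 CPM. Of those 7, 6 were lower and 1, Cyp7b1, fell past the threshold, with a log2 fold change of -0.96 (edgeR adjusted p = 0.0357). The part of these segments in the values of Pck1 was not tested.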

How the data were processed

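RNA sequencing was done on polyadenylated RNA of whole kidneys. The authors deposited whole-number read counts per gene and, in a second table, FPKM values made from them. The submitters' processing notes name featureCounts 1.5.0-p3, HISAT2 2.0.5 and DESeq2 1.20.0, with build GRCm38. The sources used here do not give the strand setting or how reads matching several genes were treated. Of 54909 rows, 377 had no gene name (0.259% to 0.362% of counts) and were left out.

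Groups and replicate numbers came from the sample titles. The test was the edgeR 4.0.16 quasi-likelihood F-test in R 4.3.3, two-sided, with TMM factors, the default expression filter, all 6 libraries and Benjamini-Hochberg adjustment across 15225 tested genes. It was tested on simulated data. Common dispersion gave a coefficient of variation of 10.5% between replicates. Fold changes set the mutant-labelled libraries over WT, with 95% intervals. CPM use TMM-scaled totals. FPKM, as deposited, gave the levels per length and the isozyme shares.

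Alternatives were DESeq2 1.42.0, limma-voom (limma 3.58.1), RLE and upper-quartile factors, no filter, a stricter filter (10 counts in 3 libraries and a mean of 1 CPM), a block for the replicate number, leaving out each library, and limma on log2(FPKM + 1) or log2(FPKM + 0.1) at a mean FPKM of at least 0.1. Shares were repeated with CPM. Summing near-identical copies was added after seeing the data.

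Full statistics were given for the members with an unadjusted p below 0.05 and 10 key enzymes. Of the neighbouring pathways, called genes and up to 2 genes per list with the lowest p were named; 1 listed name, Dak, was not in the table, and 1 is not reported here. Gpi1, Aldoa, Eno1, Eno1b and Gm4735 were described beyond this rule. The members, the lists and this rule were chosen with earlier results of these data known.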

Additional observations from a re-analysis of the deposited data

How the results depend on the processing

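Over the 31 tested members and 16 alternatives, 468 of 496 fold changes kept their direction and their side of the threshold, 8 passed the threshold in the same direction and 20 changed sign. The count of members called was 0 in the edgeR test, with limma-voom, RLE or upper-quartile factors, the stricter filter, both FPKM tests and summed copies. It was 1 with DESeq2 (Ldha), 4 without a filter (Ldha, Gapdh, Pfkfb3, Aldoc) and 0 to 2 when a library was left out. Without a filter, 520 genes were called over all genes against 57, with DESeq2 171, without WT replicate 1 149, and without Lpar3-/- replicates 1, 2 and 3 12, 26 and 12. The count over all genes was 55 with limma-voom, 58 with RLE and 57 with upper-quartile factors, 52 with the stricter filter and 57 with summed copies. The tests on log2(FPKM + 1) and log2(FPKM + 0.1) called only 9 and 13 of 18499 genes. With so few calls, 0 members called there says little about the members. The count of neighbouring pathway genes called was 2 with DESeq2 (Pdk2 and Gpt) and 1 to 2 when a library was left out (2 without WT replicate 2, Akr1b3 and Gpt). The log2 fold change of Fbp1, -0.0039 in the edgeR test, was 9.58e-05 with DESeq2 and 0.0038 with log2(FPKM + 1) and log2(FPKM + 0.1), and Fbp1 was called in none of the alternatives. With a library left out, log2 fold changes ran from -0.049 to 0.021 for Pfkm, -0.023 to 0.30 for Eno3, -0.10 to 0.16 for Pkm, -0.23 to 0.050 for Pklr, -0.0021 to 0.080 for Pfkfb2, -0.22 to 0.026 for Pfkfb4, -0.040 to 0.075 for Fbp1, -0.049 to 0.20 for Fbp2, -0.21 to 0.17 for G6pc and -0.037 to 0.061 for Pcx. The cause was not tested.

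With CPM in place of FPKM, which drops the division by gene length, the shares in WT and in the libraries labelled Lpar3-/- were 96.4% and 97.4% for Hk1, 98.8% and 98.8% for Eno1, 88.3% and 89.4% for Pkm, 53.6% and 60.1% for Ldhb, 54.9% and 49.6% for Pfkfb3, 99.5% and 99.5% for Pck1, and 51.8% and 49.9% for Pfkl.

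With the replicate number as a block, 0 members and 80 genes in all were called, against 57 without it, and the Ldha adjusted p was 0.0761. It changed no call of a member. Deviations of same-numbered libraries correlated at 0.011, 0.031 and 0.067, and those of differently numbered ones at -0.075 to 0.042. Correlations this weak, with 3 libraries per group, cannot show whether the libraries were paired. Not every library correlated best with its own number. Depth limits Hk2, Eno2 and Pfkfb1, which rested on 13 to 49 counts per library and had SE of 0.37, 0.28 and 0.31 on the log2 scale.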
